A study of Mus musculus with 24 samples.

Results

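This report describes 10 hypoxia-inducible genes in the mouse kidney after myocardial infarction (MI): *Hif1a*, *Epas1*, *Egln1*, *Egln3*, *Vegfa*, *Adm*, *Slc2a1*, *Bnip3*, *Ndrg1* and *Ankrd37*. They were chosen by name, as subunits, oxygen sensors and widely used target genes of the hypoxia-inducible factors (HIF). The rule uses no measured value, but the choice was made with earlier results of these data known. They are 10 of the 56941 genes of the count table. The count filter left 12780 genes for testing, and 9 of the 10 were among them, all but *Ankrd37*.

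All kidneys came from male C57BL/6J wild-type mice that were 8 to 11 weeks old at surgery. In the MI groups the left anterior descending coronary artery was tied off permanently, and sham mice had the same operation without the ligation. The 3 groups used here are sham (n = 8), 5d post-MI (n = 8) and 28d post-MI (n = 6), 1 kidney per mouse. Sham mice were killed 5d after their operation and are the control for both times, so that at 28d the effect of MI cannot be told apart from that of time after surgery and age. Whole snap-frozen kidney was used, in which fewer cells of a type and less RNA per cell cannot be told apart. Oxygen tension and HIF protein were not measured in the data used here. All values below are 3′-end mRNA counts.

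Total counts per kidney were between 2280618 and 3786275. The defining nephron markers were present in every kidney: *Slc34a1*, the phosphate transporter of the proximal tubule, was between 3207 and 4902 CPM (counts in every 1000000 of a library), *Umod* of the thick ascending limb between 643.1 and 1129 CPM, and *Aqp2*, the water channel of the collecting duct, between 300.9 and 1218 CPM. In 3 kidneys the summed level of 7 adrenal cortex markers exceeded 50 CPM, at 976.4 CPM in sham replicate 2, 726.8 CPM in sham replicate 6 and 85.2 CPM in 5d post-MI replicate 5. Each comparison was also run without these 3 kidneys.

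Cells respond to low oxygen through HIF, a transcription factor made of an oxygen-regulated alpha subunit, HIF-1α (*Hif1a*) or HIF-2α (*Epas1*), and the stable partner ARNT. When oxygen is present, prolyl hydroxylases of the EGLN family mark the alpha subunits for capture by the von Hippel-Lindau protein and for degradation, so that control of the alpha subunits is mostly at the protein and not at the mRNA level. When oxygen falls, HIF binds short core motifs near its targets and raises genes for glucose uptake, glycolysis, vessel growth, mitophagy and, in kidney interstitial cells, erythropoietin. *Egln1* and *Egln3* are sensors and at the same time targets.

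Matches to the HIF core motif in the promoter sequences are shown first. Binding of HIF to them was not measured in the data used here. RefSeq promoters on GRCm38.p6 were given for 8 of the 10 genes, all but *Epas1* and *Ndrg1*, with a pair of entries for *Vegfa*. The core motif ACGTG or GCGTG was searched on both strands in the 250 bases before each gene start, so that CACGT and CACGC are matches on the opposite strand, and CACGTG counts at both of its positions. All 8 genes held at least 1 match in at least 1 promoter. The upstream *Vegfa* promoter held 0 and the other one 2. A match is common: 38.6% of the 32851 promoters of the table held one, and 64.2% of the 12417 with at least 10 CpG. Of the following stretches, *Slc2a1* is shown because it had the lowest p-values against sham among the 9 tested genes, *Bnip3* because it held the most matches, 5, and *Ankrd37* because it was almost without counts although its promoter held 4 matches. They are written 5′ to 3′ on the gene's strand, with the core matches in capitals, and bases are counted back from the gene start of RefSeq. The GRCm38 gene annotation used for the positions further below starts *Slc2a1* a little earlier, inside the stretch shown and within its last match. It starts *Ankrd37* at base 46005707, so that the stretch shown lies inside the gene of that annotation. The searched promoter of *Hif1a* and the second one of *Vegfa* also lie inside their annotated genes.
Slc2a1, chr4:119108645-119108715, plus strand, bases -100 to -30: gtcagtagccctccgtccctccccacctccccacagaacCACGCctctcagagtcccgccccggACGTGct
Bnip3, chr7:138909537-138909636, minus strand, bases -130 to -31: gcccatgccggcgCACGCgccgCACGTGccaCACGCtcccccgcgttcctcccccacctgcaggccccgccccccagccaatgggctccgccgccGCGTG
Ankrd37, chr8:45999986-46000015, minus strand, bases -165 to -136: cttcactgcgCACGCGTGctgcggccgcct

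None of the 9 tested genes passed the test (edgeR quasi-likelihood test, Benjamini-Hochberg adjusted p under 0.05 over all 12780 genes) in any of the 3 comparisons, and none did with limma-voom. With DESeq2 none passed either, but at 28d post-MI against sham it gave no adjusted p for 6 of the 9 genes, *Slc2a1* among them (DESeq2 p of 0.0017 before adjustment). Calls were rare for all genes: 0.0704% of tested genes passed when 5d post-MI was compared with sham, 0.0235% when 28d post-MI was, and 0.415% when the later time was compared with the earlier one. Before adjustment, 2 of the 9 genes had p under 0.05 at 5d post-MI, *Slc2a1* upwards and *Epas1* downwards, where 7.9% of all genes did, 3.92% upwards and 3.97% downwards. At 28d post-MI it was *Slc2a1* and *Vegfa*, both upwards, where 8.68% did, 4.45% upwards. Between the times it was *Vegfa* alone, higher at 28d, where 9.05% did, 5.03% upwards and 4.01% downwards. The median log2 change of the 9 genes was -0.01, -0.02 and 0.03 in the 3 comparisons, and that of all tested genes was 0.00018, -0.0012 and -0.0046. These comparisons share their groups, so their values are not independent of each other.

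**Figure D1:**
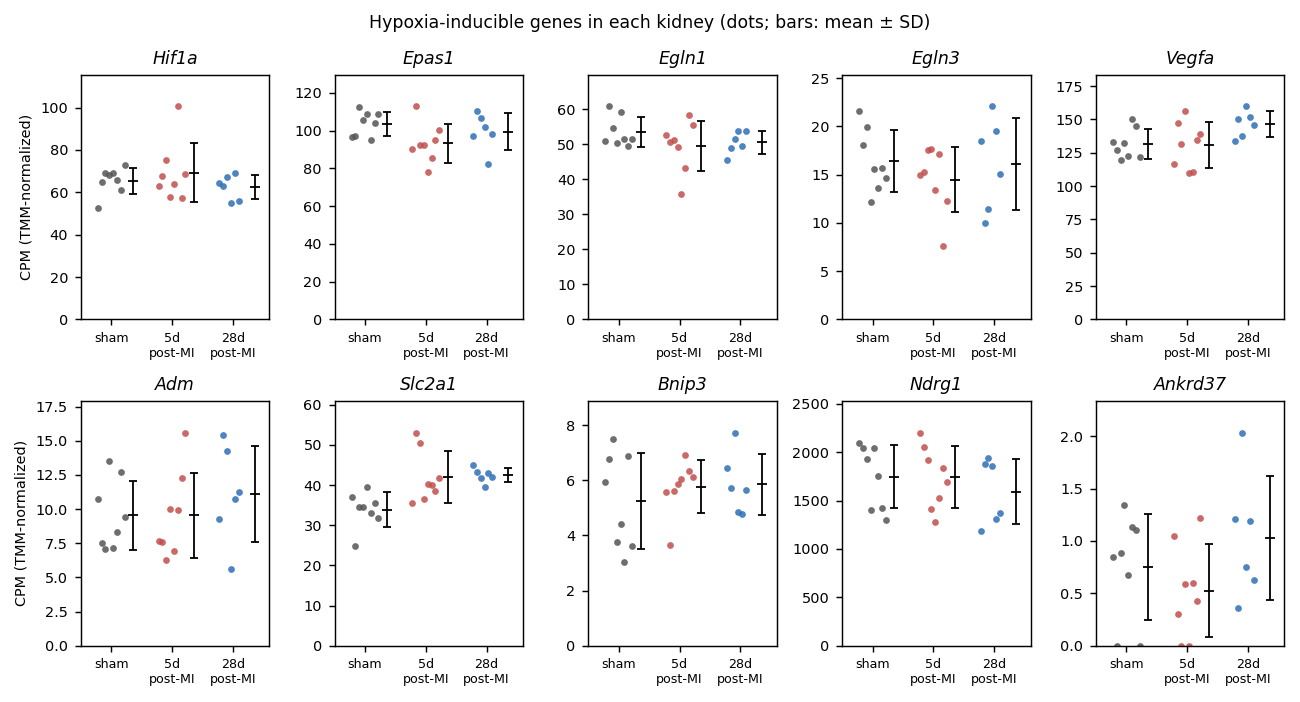
CPM (vertical axis, each panel from 0) of the 10 hypoxia-inducible genes in every kidney, grouped as sham (n = 8), 5d post-MI (n = 8) and 28d post-MI (n = 6); dots are kidneys, bars are mean ± SD. The groups overlap in every panel but that of Slc2a1, whose 6 kidneys at 28d post-MI start at 39.63 CPM where the sham kidneys end at 39.62 CPM.

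*Slc2a1* (chromosome 4, 119108711 to 119137983, plus strand, GRCm38) encodes GLUT1, the glucose transporter that HIF-1 raises in many cell types. It was between 24.8 and 39.6 CPM in sham kidneys (median 34.5), between 35.6 and 53.0 CPM at 5d post-MI (median 40.2), and between 39.6 and 45.1 CPM at 28d post-MI (median 42.5). All 8 kidneys at 5d post-MI lay above the sham mean and 5 of them above every sham kidney, with 3 inside the sham range. Groups without any overlap were seen for 0.0548% of tested genes in this comparison. The 28d post-MI kidneys lay above every sham kidney, a separation that 0.258% of all tested genes had in one direction or the other, but the gap of 39.62 to 39.63 CPM is far smaller than the 0.27 to 0.44 CPM that a single count is worth. In means, *Slc2a1* was 33.9 ± 4.38 CPM in sham (SD, n = 8), 42.0 ± 6.37 at 5d (n = 8) and 42.5 ± 1.80 at 28d (n = 6). The fitted level was 1.24-fold that of sham at 5d post-MI (95% interval 1.09 to 1.41), with a log2 change of 0.31 ± 0.087 (SE). Its edgeR p was 0.00098 before adjustment and 0.23 after it, rank 55 of 12780. At 28d post-MI it was 1.25-fold (1.09 to 1.43), a log2 change of 0.32 ± 0.094, with an edgeR p of 0.0015 and an adjusted p of 0.26. The exact two-sided permutation test over kidneys gave p = 0.0039 at 5d and 0.0010 at 28d, and 0.47 and 0.29 after adjustment over all genes. The log2 change between the times was 0.01 with an interval from -0.18 to 0.21. The direction against sham held in every fit with 1 kidney left out, from 0.25 to 0.34 at 5d and from 0.27 to 0.36 at 28d.

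Other values differed between the groups or went with *Slc2a1* over the kidneys. The summed level of 12 podocyte markers was between 243.1 and 297.6 CPM in sham kidneys and between 282.3 and 352.6 CPM at 5d post-MI, higher by 0.17 on the log2 scale (exact permutation test, adjusted p = 0.018 over 36 marker tests). At 28d post-MI it was between 257.0 and 327.5 CPM, a difference of 0.09 with an adjusted p of 0.35 in the same exact permutation test. Over the 22 kidneys, with group means subtracted, *Slc2a1* and the podocyte markers had Pearson's r = 0.65 (permutation p = 0.0009, adjusted 0.065 over 72 relations) and Spearman's rho = 0.55 (permutation p = 0.0082). Without the 2 kidneys farthest in *Slc2a1*, r was 0.46, and within sham, 5d and 28d kidneys it was 0.65, 0.89 and 0.48. With the mean log2 CPM of the podocyte markers, and not their sum, as a covariate in edgeR, the log2 change of *Slc2a1* was 0.11 at 5d and 0.24 at 28d. Its edgeR p was 0.32 and 0.013 before adjustment, and 0.94 and 0.36 after it. Immediate early genes respond within minutes to a stimulus or to handling of tissue. At 5d post-MI they were lower, between 124.7 and 696.0 CPM in sum against 677.0 to 1449 CPM in sham. The log2 difference was -1.58 (exact permutation test, adjusted p = 0.0040), and at 28d it was 0.46 (exact permutation test, adjusted p = 0.23). Their r with *Slc2a1* was -0.20 (permutation p = 0.36, adjusted 0.68). Within sham, 5d and 28d kidneys this r was 0.88, -0.73 and -0.21. With the immediate early genes as a covariate in edgeR the log2 change of *Slc2a1* was 0.20 at 5d (edgeR adjusted p = 0.999, and 0.14 before adjustment) and 0.35 at 28d. Their level hardly overlapped between 5d and sham kidneys, so that at 5d this fit can hardly tell it apart from the group. The 7 thick ascending limb markers had r = 0.38 with *Slc2a1* (permutation p = 0.083, adjusted 0.47) and rho = 0.47 (permutation p = 0.027), and within sham, 5d and 28d kidneys r was 0.062, 0.95 and 0.24. With them as a covariate in edgeR the log2 change of *Slc2a1* was 0.23 at 5d and 0.25 at 28d. Proximal tubule markers had r = -0.42 with *Slc2a1* (permutation p = 0.050, adjusted 0.44) and rho = -0.47 (permutation p = 0.028). Within sham, 5d and 28d kidneys their r was -0.08, -0.78 and 0.03. Sham replicate 2, the kidney with the most adrenal cortex RNA, also had the lowest *Slc2a1*, 24.8 CPM. Adrenal cortex markers had r = -0.53 with *Slc2a1* (permutation p = 0.014, adjusted 0.19), and r = -0.12 without the 3 kidneys that exceeded 50 CPM of them. Without these 3 kidneys the log2 change of *Slc2a1* was 0.27 at 5d and 0.26 at 28d. The part of podocyte, thick ascending limb, proximal tubule, immediate early and adrenal RNA in the *Slc2a1* values was not tested beyond these fits and correlations.

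**Figure D2:**
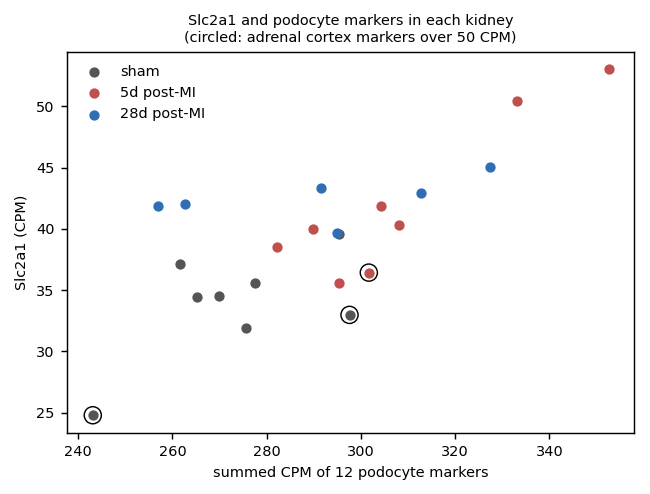
Slc2a1 in CPM (vertical axis) against the summed CPM of 12 podocyte markers (horizontal axis), 1 dot per kidney, coloured by group and circled where adrenal cortex markers exceeded 50 CPM; both axes are cut to the range of the data. The lowest dot, a sham kidney at 24.8 CPM, has the lowest podocyte level too, while at 28d post-MI the kidneys of low podocyte level, down to 257.0 CPM, have Slc2a1 above every sham kidney.

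*Hif1a* and *Epas1* are the alpha subunits. *Hif1a* was between 52.4 and 72.7 CPM in sham kidneys (median 67.1), between 57.1 and 100.5 CPM at 5d post-MI (median 65.9), and between 55.0 and 69.1 CPM at 28d post-MI (median 63.7). The groups overlapped throughout. Its log2 change was 0.09 at 5d (interval -0.10 to 0.27, edgeR adjusted p = 0.88) and -0.07 at 28d (interval -0.27 to 0.14, edgeR adjusted p = 0.90). The value at 5d rested on 5d post-MI replicate 7 with 100.5 CPM, and was -0.01 without it.

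*Epas1* (chromosome 17, 86753700 to 86833410, plus strand, GRCm38), which in kidney is known from endothelial and interstitial cells, was between 95.2 and 112.3 CPM in sham kidneys (median 104.9), and between 78.0 and 112.8 CPM at 5d post-MI (median 92.4). Of the 8 kidneys at 5d, 6 lay below every sham kidney and 1 lay above all of them. The fitted level was 0.90-fold that of sham (0.82 to 0.99), a log2 change of -0.15 ± 0.064, with an edgeR p of 0.026 before adjustment and 0.56 after it. At 28d post-MI *Epas1* was between 82.2 and 110.6 CPM (median 100.1), a log2 change of -0.06 (interval -0.20 to 0.09). The 12 endothelium markers had summed levels of 503.1 to 625.5 CPM in sham and 425.1 to 556.3 CPM at 5d post-MI, a log2 difference of -0.14 (exact permutation test, p = 0.043, adjusted p = 0.14). With these markers as a covariate in edgeR the log2 change of *Epas1* at 5d was -0.12 (edgeR adjusted p = 0.67, and 0.084 before adjustment), and with the immediate early genes as a covariate it was -0.33 (edgeR adjusted p = 0.999, and 0.00081 before adjustment). The immediate early level hardly overlapped between sham and 5d kidneys, so that the latter fit can hardly tell it apart from the group. With group means subtracted, *Epas1* had r = -0.51 with the immediate early level (permutation p = 0.016, adjusted 0.19 over 72 relations). Within sham, 5d and 28d kidneys this r was -0.02, -0.79 and -0.18. The part of endothelium and immediate early RNA in the *Epas1* values was not tested further.

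*Egln1* and *Egln3* encode the prolyl hydroxylases PHD2, the main oxygen sensor of most cells, and PHD3, which is strongly induced by hypoxia in many of them. *Egln1* was between 49.7 and 60.9 CPM in sham (median 51.6), between 35.95 and 58.4 CPM at 5d (median 50.9), and between 45.5 and 53.9 CPM at 28d (median 50.7). No kidney of either MI group exceeded the highest sham kidney. Its log2 change was -0.11 at 5d (interval -0.26 to 0.05) and -0.08 at 28d (interval -0.25 to 0.09). *Egln3* was lower in counts and wider in spread, between 12.1 and 21.5 CPM in sham (median 15.7), between 7.62 and 17.6 CPM at 5d (median 15.1), and between 10.03 and 22.1 CPM at 28d (median 16.8). The log2 changes of *Egln3* were -0.15 (interval -0.48 to 0.17) and -0.02 (interval -0.37 to 0.32). At 28d the interval of *Egln3* corresponds to 0.77- to 1.25-fold.

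*Vegfa* and *Adm* encode secreted factors, the vascular growth factor VEGF-A, which podocytes and tubules make in the healthy kidney, and the vasodilator peptide adrenomedullin. *Vegfa* (chromosome 17, 46016993 to 46032369, minus strand, GRCm38) was between 119.4 and 150.5 CPM in sham (median 129.7), between 109.6 and 156.6 CPM at 5d (median 133.1), and between 134.0 and 159.7 CPM at 28d (median 148.1). All 6 kidneys at 28d lay above the sham mean of 131.5 CPM, and 2 lay above every sham kidney. The fitted level at 28d was 1.12-fold that of sham (1.01 to 1.23), a log2 change of 0.16 ± 0.070, with an edgeR p of 0.032 before adjustment and 0.53 after it. Against 5d post-MI it was 1.12-fold (1.01 to 1.24), with an edgeR p of 0.026 before adjustment and 0.47 after it. With the immediate early genes as a covariate in edgeR the log2 change of *Vegfa* between the times was 0.28 in place of 0.16 (edgeR adjusted p = 0.64). Their summed level was 124.7 to 696.0 CPM at 5d and 999.5 to 2433 CPM at 28d, so that this fit can hardly tell it apart from the group. With the endothelium markers as a covariate the log2 change was 0.15 (edgeR adjusted p = 0.50, and 0.059 before adjustment). At 5d against sham the log2 change was -0.01 with an interval from -0.14 to 0.13. The range over the fits with 1 kidney left out was 0.13 to 0.19 at 28d against sham, with p under 0.05 before adjustment in 16 of 22 fits. *Adm* was between 7.07 and 13.5 CPM in sham (median 8.88), between 6.31 and 15.6 CPM at 5d (median 8.81), and between 5.61 and 15.4 CPM at 28d (median 11.01). Its groups overlapped almost wholly, and its intervals were wide, -0.42 to 0.37 at 5d and -0.25 to 0.61 at 28d on the log2 scale.

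*Bnip3*, a mitophagy receptor of the outer mitochondrial membrane, *Ndrg1*, a stress-response gene and common marker of hypoxia, and *Ankrd37*, a target almost silent in normoxic cells, complete the set. *Bnip3* was between 3.03 and 7.52 CPM in sham (median 5.18), between 3.66 and 6.92 CPM at 5d (median 5.97), and between 4.77 and 7.73 CPM at 28d (median 5.69). With 8 to 25 counts per kidney its within-group coefficient of variation of 23.7% was no larger than counting alone gives. Its log2 changes were 0.15 (interval -0.25 to 0.55) and 0.17 (interval -0.27 to 0.61).

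*Ndrg1* had by far the most counts of the set, 2940 to 7386 per kidney. It was between 1299 and 2093 CPM in sham (median 1841), between 1273 and 2200 CPM at 5d (median 1764), and between 1188 and 1943 CPM at 28d (median 1613). The groups covered nearly the same range. Counting alone gives a coefficient of variation of 1.42%, and the kidneys of a group varied by 19.2%, so that for *Ndrg1* the spread between kidneys and not depth set the intervals, -0.30 to 0.29 at 5d and -0.46 to 0.18 at 28d on the log2 scale. Over all tested genes this spread stood at percentile 63.4, while *Epas1*, with 9.07%, stood at percentile 15.4. With group means subtracted, *Ndrg1* had r = 0.53 with 6 brown adipocyte markers (permutation p = 0.0087, adjusted 0.19 over 72 relations). Without the 2 farthest kidneys r was 0.27, and with white adipocyte markers over all kidneys it was 0.31. The part of adipocyte RNA in the spread of *Ndrg1* was not tested.

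*Ankrd37* had 0 to 5 counts per kidney, 19 in all 8 sham kidneys, 13 in all 8 kidneys at 5d and 16 in all 6 at 28d, and did not pass the count filter. It had 0 counts in 2 sham kidneys and in 2 kidneys at 5d, where 3 counts would be 0.83 to 1.30 CPM. Its 3′ end overlaps that of *Ufsp2* on the opposite strand, which had 2028 counts, and without a stated strand setting, reads of the overlap cannot be told apart. A difference between the groups was not detectable at this depth. The same holds for *Epo*, the hormone of renal interstitial cells that HIF-2 controls: it had 0 counts in all 22 kidneys, of 65185960 counts in total.

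**Figure D3:**
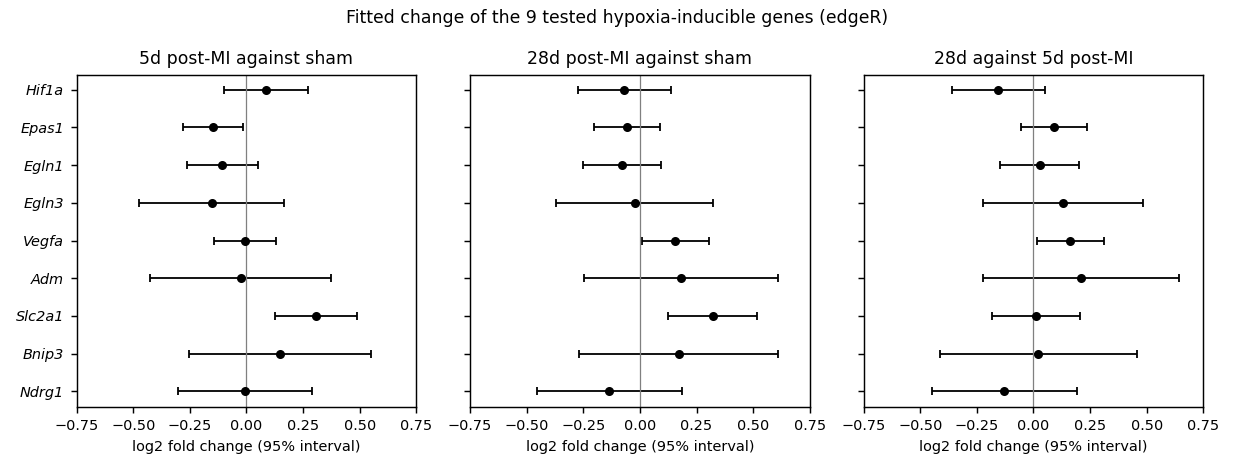
Fitted log2 fold change (horizontal axis, edgeR) of the 9 tested genes with 95% intervals, with a panel for each time compared with sham and a panel for 28d compared with 5d. The intervals of Slc2a1 stay above 0 in both comparisons with sham, those of Epas1 below 0 at 5d and those of Vegfa above 0 in both comparisons of 28d, and all others cross 0.

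The receptors of the secreted factors were measured in the same kidneys, and 8 of 8 passed the count filter. None passed the test in any comparison. *Kdr*, the main signalling receptor for VEGF-A on endothelium, was between 36.8 and 57.3 CPM in sham and between 25.6 and 50.6 CPM at 5d post-MI, a log2 difference of -0.25 ± 0.11 with an edgeR p of 0.035 before adjustment and 0.59 after it. The endothelium markers also had a lower sum at 5d, as given above. Their log2 difference from sham at 28d was 0.009 (exact permutation test, adjusted p = 0.88). Their relation to *Kdr* over the kidneys was not tested. At 28d post-MI the log2 difference of *Kdr* from sham was -0.15 (edgeR adjusted p = 0.80). The decoy receptor *Flt1* and the co-receptors *Nrp1* and *Nrp2* had log2 differences of 0.03, 0.09 and -0.10 at 5d and of 0.10, 0.08 and -0.05 at 28d. For adrenomedullin, the receptor *Calcrl* and its partners *Ramp2* and *Ramp3* had log2 differences of 0.19, -0.04 and -0.12 at 5d and of 0.27, 0.17 and -0.02 at 28d, and the scavenger receptor *Ackr3* had 0.17 and 0.36. The lowest p of these 4 genes against sham was 0.081 before adjustment (edgeR), that of *Calcrl* at 28d.

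Of 15 further genes of the oxygen-sensing machinery, 14 were tested and 0 passed in any comparison. At 5d post-MI 0 had p under 0.05 before adjustment, and at 28d 2 were higher and 2 lower, where 4.45% and 4.23% of all tested genes were. Those higher were *Os9*, whose product binds HIF-1α and prolyl hydroxylases, at 156.5 ± 8.77 CPM against 139.5 ± 5.83 in sham (SD, n = 6 and 8, log2 difference 0.17, edgeR adjusted p = 0.30), and the prolyl hydroxylase gene *Egln2*, at 49.5 ± 4.13 against 41.6 ± 5.82 CPM (log2 difference 0.26, edgeR adjusted p = 0.36). Those lower were *Rbx1* and *Arnt*. *Rbx1*, a subunit of the ubiquitin ligase that the von Hippel-Lindau protein works in, was 89.9 ± 6.42 against 101.0 ± 5.81 CPM (log2 difference -0.17, edgeR adjusted p = 0.39). *Arnt*, the gene of the HIF partner, was 27.4 ± 1.84 against 31.8 ± 2.61 CPM (log2 difference -0.22, edgeR adjusted p = 0.52).

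Of 19 glycolysis targets of HIF, 17 were tested and 0 passed. In contrast to *Slc2a1*, those with p under 0.05 before adjustment were lower in the MI groups, 1 at 5d and 4 at 28d, where 3.97% and 4.23% of all tested genes were lower by this rule. *Aldoa*, the glycolytic aldolase, was 605.9 ± 45.96 CPM in sham (SD, n = 8), 558.9 ± 23.0 at 5d (n = 8) and 558.6 ± 32.1 at 28d (n = 6), a log2 difference of -0.12 at both times (edgeR adjusted p = 0.50 and 0.49). *Pdk1*, whose product keeps pyruvate out of the mitochondrion, was between 19.9 and 28.8 CPM in sham, 22.6 and 30.9 CPM at 5d and 16.3 and 24.3 CPM at 28d. The log2 difference of *Pdk1* between 28d and 5d was -0.33 (edgeR adjusted p = 0.22). The median log2 change of the list was -0.04 at 5d and -0.04 at 28d. Single genes of the list ran from -0.50 to 0.25 at 5d and from -1.27 to 0.26 at 28d.

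Of 30 other HIF targets, 24 were tested and 0 passed. Before adjustment 2 were higher and 3 lower at 5d (3.92% and 3.97% of all tested genes), 1 was higher and 0 lower at 28d (4.45% and 4.23%), and 4 were higher and 3 lower at 28d against 5d (5.03% and 4.01%). Between the times immediate early RNA was higher at 28d by 2.04 on the log2 scale (exact permutation test, adjusted p = 0.0040). Haemoglobin RNA was lower by 1.76 and that of other red blood cell genes by 0.63 (exact permutation tests, adjusted p = 0.0060 and 0.0072). Of these 11 other red blood cell genes only 1 passed the count filter, with a log2 difference of -0.26 between the times. The part of these RNAs in the following differences was not tested. *Tfrc*, the transferrin receptor, was 32.9 ± 6.95 CPM in sham (SD, n = 8), 23.8 ± 5.37 at 5d (n = 8) and 36.2 ± 10.5 at 28d (n = 6), with an edgeR adjusted p of 0.44 at 5d against sham and 0.20 between the times, where it was 0.056 with DESeq2 and 0.033 by edgeR with no filter on low counts. *Bnip3l*, the mitophagy receptor related to *Bnip3*, was 111.8 ± 6.28 CPM at 5d and 95.4 ± 10.04 at 28d (SD, n = 8 and 6, log2 difference -0.23, edgeR adjusted p = 0.20), where *Bnip3* had 0.02. *P4ha1*, a collagen prolyl hydroxylase gene, was 45.5 ± 5.62 CPM at 28d and 36.96 ± 6.03 at 5d (SD, n = 6 and 8, log2 difference 0.30, edgeR adjusted p = 0.20).

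**Figure D4:**
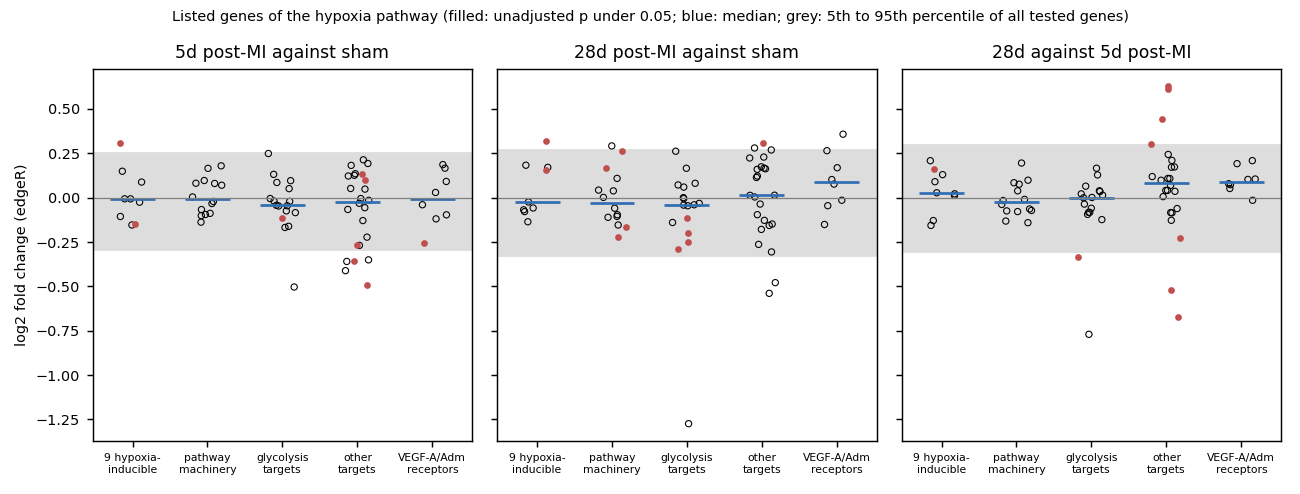
Log2 fold change (vertical axis, edgeR) of the 9 tested hypoxia-inducible genes and of 14 machinery genes, 17 glycolysis targets, 24 other targets and 8 receptors, for each comparison; filled dots have p under 0.05 before adjustment, blue lines are medians and the grey band holds the 5th to 95th percentile of all 12780 tested genes. Most dots of every list lie inside the grey band.

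With group means subtracted, Pearson's r of log2 CPM over the 22 kidneys had a median of 0.02 over the 36 pairs, with 19 pairs above 0 and 2 past the adjusted threshold. All points share library depth, and *Bnip3* and *Adm* carry much counting error. The values of r ran from -0.62, for *Egln3* and *Adm*, to 0.60, for *Egln1* and *Ndrg1*, and both pairs had a permutation adjusted p of 0.039 over the 36 pairs. Spearman's rho was -0.50 and 0.50 for these pairs, each with a permutation adjusted p of 0.34. Without the 2 farthest kidneys r was -0.55 and 0.55. Within sham, 5d and 28d kidneys r was -0.36, -0.52 and -0.89 for *Egln3* and *Adm*, and 0.65, 0.71 and 0.48 for *Egln1* and *Ndrg1*. The summed level of 10 proximal tubule markers went with both *Egln3* (r = -0.62, permutation adjusted p = 0.071 over 72 relations) and *Adm* (r = 0.51, permutation adjusted p = 0.19), with signs as opposite as those of the pair, and its part in their relation was not tested. *Slc2a1* and *Vegfa*, the genes that were higher at 28d before adjustment, had r = 0.12.

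**Figure D5:**
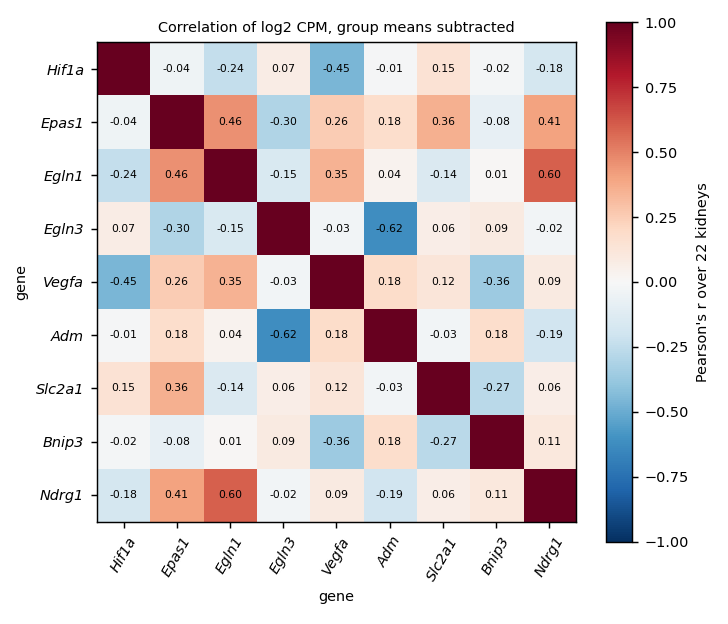
Pearson's r of log2 CPM between the 9 tested genes over 22 kidneys, group means subtracted; both axes list the genes, red is positive and blue negative, and the value stands in each cell. The strongest cells are Egln3 with Adm at -0.62 and Egln1 with Ndrg1 at 0.60, and most others are pale.

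For each gene the tested genes of most similar pattern were taken by the same r over the 22 kidneys, as a description. Those of *Slc2a1* were *Wfdc2*, a secreted protease inhibitor of the distal nephron (r = 0.78), and the gene models *Gm7962* and *Gm13226*. Those of *Ndrg1* were *Slc16a1*, the monocarboxylate transporter MCT1 (r = 0.81), *Npnt*, a matrix protein of the nephron (r = 0.76), and *Socs3*, an inhibitor of cytokine signalling (r = 0.74). Those of *Epas1* were *Iffo1* (r = 0.80), *Klk1b11* (r = 0.79) and the endothelial Notch ligand *Dll4* (r = 0.75). The closest gene was *Serinc3* for *Hif1a* (r = 0.83), *Dpy19l1* for *Egln1* (r = 0.81), *Fam241b* for *Egln3* (r = 0.84), *Gm12038* for *Vegfa* (r = 0.76), *Rab5c* for *Adm* (r = 0.84) and *Ccdc174* for *Bnip3* (r = 0.83). No gene of the set was among the 3 closest of another. These r were picked as the highest over all 12780 tested genes, so that their size is no test. Some of the genes were low, with means of 2.44 CPM for *Socs3*, 4.25 for *Gm7962*, 4.72 for *Dll4* and 4.94 for *Gm12038*.

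Among the other marker lists, haemoglobin RNA did not overlap between 5d post-MI and sham. The summed level of 4 haemoglobin genes was between 2200 and 4123 CPM in sham and between 4967 and 19090 CPM at 5d post-MI, higher by 1.39 on the log2 scale (exact permutation test, adjusted p = 0.0040), and it was between 1795 and 5122 CPM at 28d post-MI. White adipocyte markers had a median of 1176 CPM in sham and 547.8 CPM at 28d, a log2 difference of -0.98 (exact permutation test, adjusted p = 0.087). Brown adipocyte markers had medians of 188.6 and 37.5 CPM, a log2 difference of -2.01 (exact permutation test, adjusted p = 0.051). With white adipocyte markers as a covariate in edgeR, *Slc2a1* had log2 changes of 0.27 and 0.28 at 5d and 28d. The 6 markers of tubular injury were in sum between 33.4 and 50.7 CPM in sham. They were between 26.5 and 69.5 CPM at 5d and between 27.2 and 41.5 CPM at 28d, with overlapping groups. Only 2 of them, *Krt18* and *Vcam1*, passed the count filter. *Havcr1*, *Lcn2*, *Krt20* and *Sox9* did not, so a change of these genes cannot be read from the sum.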

How the data were processed

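Kidney RNA of 24 mice was sequenced by MACE, which counts mRNA by its 3′ end and tags each molecule with a unique identifier. According to the study's methods, reads were trimmed with Cutadapt and mapped to mm10, and genes were counted with HTSeq. The submitters' processing notes name mm39 and Bowtie2 instead, so the build is unsettled, and no coordinate here comes from the count table. Gene positions and promoters are those of GRCm38. The annotation and strand setting are not given in the sources used here. Values in the deposited table are raw counts per gene that the authors did not normalize. Of its 48 value columns 26 were not used: 24 hold scaled values named tpm, and 2 count columns share a name, so that 1 kidney of each MI group could not be assigned. The 22 kidneys used had total counts of 2280618 to 3786275. Symbols were matched to 51948 of 56941 identifiers. Within groups, 71 pairs of kidneys differed by chi-squared per degree of freedom of 1.69 to 7.21, so none was a repeat of another. Nothing in the labels says more on how replicates relate than that each is a mouse.

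Counts were filtered by filterByExpr (minimum of 10), normalized by TMM and fitted by edgeR 4.0.16 (robust quasi-likelihood F test, 3 groups, no covariate, R 4.3.3) for the 3 contrasts, two-sided, with Benjamini-Hochberg adjustment over all 12780 genes and calls under 0.05. CPM uses TMM-scaled totals, and correlations use log2 CPM with a prior count of 2. Single values and marker sums were tested by exact permutation over kidneys, and correlations by 100000 permutations. Python 3.11.15 with scipy 1.17.1 and matplotlib 3.10.9 was used. On simulated data, edgeR recovered 177, 171 and 180 of 200 genes changed by 1 on the log2 scale in the 3 contrasts, among 12780 genes each. It also called 4, 15 and 9 unchanged genes. The largest fitted change of the 9 tested genes was 0.32, so the simulation does not show how often changes of their size are found. Alternatives were DESeq2 1.42.0, limma-voom 3.58.1, other filters and scalings, 2-group fits, a replicate block, marker covariates and leaving out each kidney. Every marker covariate was the mean log2 CPM of the genes of its list, those below the count filter included, and not their summed CPM. DESeq2 adjusted p-values given as NA were kept as NA. The limit set for a gene at 0 counts is 3 counts, for counting error alone.

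The genes and lists were chosen with earlier results of these data known. Of the other HIF targets, 1 gene is not reported here and was left out of the counts of its list. Genes named in the text are the 10 genes of the set, all tested receptors of VEGF-A and adrenomedullin, examples from the 3 genes of lowest p in each HIF list and contrast, and the genes of highest r with each gene of the set. Haemoglobin, adrenal, adipocyte, endothelium, podocyte, tubule, injury and immediate early lists served as markers. Of them, the 11 red blood cell genes other than haemoglobin had summed levels of 7.07 to 16.1 CPM in sham, 10.06 to 15.8 CPM at 5d and 6.27 to 10.7 CPM at 28d. Only 1 of these 11 genes passed the count filter. Medulla and collecting duct markers had 792.1 to 1944 CPM. Brown adipocyte markers had 3.03 to 382.3 CPM and thick ascending limb markers 2052 to 3603 CPM.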

Additional observations from a re-analysis of the deposited data

Results flagged for a closer look

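Of 105 gene and group combinations, 35 genes in 3 groups, 5 held a kidney that stood apart from the rest of its group by Dixon's test at 95%. Chance alone gives about 1 in 20. *Hif1a* was 100.5 CPM in 5d post-MI replicate 7, where the other 7 kidneys were between 57.1 and 75.3 CPM. *Bnip3* was 3.66 CPM in 5d post-MI replicate 2, below the 5.59 to 6.92 CPM of the others, which is a gap of few counts. *Hk1*, a hexokinase gene of the glycolysis list, was 53.3 CPM in 28d post-MI replicate 3 against 67.3 to 72.7 CPM in the others. *Kdm3a*, a histone demethylase gene, was 16.8 CPM in 5d post-MI replicate 5 against 10.97 to 13.7 CPM, and this kidney is among the 3 with adrenal cortex markers. *Bhlhe41*, a transcriptional repressor of the clock, was 12.5 CPM in 28d post-MI replicate 1 against 2.87 to 4.70 CPM.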

How the results depend on the processing

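None of the 9 tested hypoxia-inducible genes passed in any comparison under the alternatives that gave it an adjusted p, or with any kidney left out. DESeq2 gave none at 28d against sham for 6 of the 9 genes, *Slc2a1* among them, and *Bnip3* fell below the filter on a mean of at least 20 counts. Of the HIF lists, *Tfrc* at 28d against 5d passed with no filter (edgeR adjusted p = 0.033). Calls among all genes moved more. At 5d post-MI against sham, 9 genes were called, and 36 with DESeq2, 80 with no filter, 5 with voom, 17 with the medulla covariate, 1 with the white adipocyte covariate, 0 with the podocyte covariate, and 2 each with only the 2 groups and with the replicate block. At 28d against sham, 3 were called, and 30 with DESeq2, 94 with no filter, 31 with only the 2 groups, 24 with the replicate block, 6 with the medulla covariate, and 5 each with voom and with the white adipocyte and podocyte covariates. Between the times, 53 were called, and 91 with DESeq2, 160 with no filter, 26 with only the 2 groups, 80 with the replicate block and 84 with the medulla covariate. Alternatives chosen after seeing the data gave 2, 1 and 39 without the kidneys with adrenal cortex markers, 0, 8 and 0 with the immediate early covariate, 1, 47 and 86 with the thick ascending limb covariate, and 2, 6 and 98 with the endothelium covariate. With 1 kidney left out the counts ran from 1 to 38 (most without 5d replicate 1), from 0 to 29 (most without sham replicate 8, none without 28d replicate 2 or 7) and from 41 to 84 (most without 5d replicate 1). Same-numbered kidneys did not deviate together (18 pairs, r from -0.13 to 0.09, 0 over 0.1), so the replicate block pairs kidneys by number only. It gave *Slc2a1* log2 changes of 0.30 at both times.

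These log2 changes turned sign. Among them *Hk1* (0.25), *Kdm3a* (-0.27), *Pfkl* (-0.16) and *Egln3* (-0.15) at 5d were not near 0 before. At 5d against sham, *Vegfa* was 0.000106 with no filter and 0.013 with the endothelium covariate. *Adm* was 0.059, 0.29 and 0.097 with the white adipocyte, podocyte and thick ascending limb covariates. *Ndrg1* was 0.0030 with voom, 0.00521, 0.085, 0.090 and 0.094 with the medulla, white adipocyte, podocyte and endothelium covariates, and 0.073 without the kidneys with adrenal cortex markers. *Hk1* was -0.054 with the podocyte covariate. With the immediate early covariate, *Egln3* was 0.22, *Rack1* -7.09e-05, *Pfkl* 0.0016 and *Kdm3a* 0.069. Between the times that covariate gave -0.36 for *Egln3*, -0.076 for *Bnip3* and 0.025 for *Rack1*, and the podocyte covariate gave -0.13 for *Bnip3*. *Egln1* was -0.017 and *Slc2a1* -0.019 with the endothelium covariate, and *Slc2a1* was -0.017 without the kidneys with adrenal cortex markers. With 1 kidney left out the ranges that crossed 0 were -0.0112 to 0.123 for *Hif1a* at 5d, -0.0493 to 0.0265 for *Vegfa* at 5d, -0.17 to 0.0654 for *Adm* at 5d, -0.0621 to 0.0475 for *Ndrg1* at 5d, -0.136 to 0.0831 for *Egln3* at 28d, -0.0223 to 0.0607 for *Egln1* between the times, -0.0193 to 0.0696 for *Slc2a1* between the times and -0.0666 to 0.0712 for *Bnip3* between the times. The cause was not tested.

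Depth limits *Ankrd37*, *Epo*, *Bnip3* and *Adm* most. The immediate early level hardly overlapped between 5d post-MI and sham kidneys, so fits with this covariate can hardly tell it apart from the group.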
